A study of Saccharomyces cerevisiae S288C with 4 samples.

Results

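The genes described here encode the machinery that brings nuclear-encoded proteins into yeast mitochondria and folds, cuts or degrades them there. They were chosen by name and function, as rows of the deposited table whose symbol belongs to the TOM, SAM, TIM22 or TIM23 complexes, the intermembrane space, or the chaperones and proteases of the matrix, together with the insertase gene *OXA1*. All 40 were found among the 6396 genes of the table, all 40 passed the filter on low counts, and each had at least 213 counts in every library. The choice used no measured value, although it was made with earlier results of these data known.

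The mutant strain was FY254 (*MATa*, with the *KanMX4* cassette in place of *THO2*) and the WT strain was BY4741, and both carry the auxotrophic deletions *his3Δ1*, *leu2Δ0*, *met15Δ0* and *ura3Δ0*. *THO2* encodes a subunit of the THO complex, which packages nascent mRNA and links transcription to mRNA export. Cells of both strains grew at 30°C in YPD, a rich glucose medium, to mid-log phase, and the comparison asks which transcripts change in abundance when *THO2* is missing. Total RNA of 2 samples per strain, numbered 3 and 4 by the submitters, was sequenced. It is not stated whether they were separate cultures, so the p-values below measure only the spread between these samples, which may be technical.

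Library depth was between 31417222 and 36989697 counts. *THO2* had 1 count in each *tho2Δ* library, against 4011 and 2457 in WT replicates 3 and 4. Of the genes that should be missing in both strains, *URA3* and *MET17* (also called *MET15*) had 0 counts in all 4 libraries. *HIS3*, of which *his3Δ1* removes a part, had 586 and 674 counts in *tho2Δ* replicates 3 and 4, against 841 and 981 in WT replicates 3 and 4 (log2 fold change -1.09, edgeR adjusted p = 0.0239). *LEU2* did not follow its label, with 511 and 4276 counts in *tho2Δ* replicates 3 and 4, against 0 and 2512 in WT replicates 3 and 4. The 0 counts in WT replicate 3 allow up to 0.0892 CPM (read counts set relative to the depth of the library and adjusted by TMM, a method that sets libraries to a common scale on the bulk of their genes), whereas WT replicate 4 was at 107 CPM. In *tho2Δ*, replicates 3 and 4 were at 13.8 and 98.6 CPM. The libraries of each strain thus differ from each other in a marker gene, with replicate 4 the higher in both strains. Where the *LEU2* reads came from was not tested. As RNA was taken from whole cultures, a change in every cell and a change in some cells cannot be told apart. Results are also given without single libraries where that matters. The **a**-mating-type genes *STE2* and *BAR1* were at 833 CPM or more and 556 CPM or more in every library, and *STE3*, the **a**-factor receptor gene of α cells, was at or below 5.12 CPM.

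Nearly all mitochondrial proteins are made in the cytosol. They enter through the TOM complex of the outer membrane, and their further route depends on their type. Proteins with a cleavable presequence pass the TIM23 complex and are pulled into the matrix by a motor built on the Hsp70 protein Ssc1. Carriers of the inner membrane are escorted by small TIM proteins to the TIM22 complex, β-barrel proteins are inserted by the SAM complex, and small cysteine-rich proteins are trapped in the intermembrane space by the Mia40–Erv1 disulfide relay. In the matrix, processing peptidases remove presequences, Hsp60 with Hsp10 and Ssc1 with its co-chaperones fold the arriving proteins, Hsp78 extracts proteins from aggregates, and the Lon protease Pim1 degrades damaged ones.

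The short sequence that most of these genes had in common lies just after the coding region. Puf3 is an RNA-binding protein known to bind many mRNAs of mitochondrial proteins through the element TGTANATA. This element was searched on the sense strand in the 300 bases after each stop codon, a window that is not an annotated transcript end. It was present in 30 of the 40 genes (75%), against 972 of 5972 protein-coding genes with a full window (16.3%). Of 51 other genes of import and mitochondrial protein quality control, described below, 26 had it (51.0%). For 7 genes on which the results below turn, the match nearest the stop codon is shown in the sense direction, from RefSeq build R64, with the element in capitals. *TOM20* has a further match 191 bases after its stop codon, which is not shown.
*HSP78* (chrIV:971724-971747, minus strand): ttctctttTGTAAATAgaagaatt
*MDJ1* (chrVI:104669-104692, minus strand): caatttctTGTAGATAaggaaaaa
*HSP10* (chrXV:370454-370477, minus strand): tatgtaccTGTAAATAggccatta
*TOM7* (chrXIV:493634-493657, plus strand): aattgacaTGTACATAaagtatat
*TOM20* (chrVII:644636-644659, plus strand): ttttactcTGTATATAgccctata
*TIM9* (chrV:117524-117547, plus strand): ttttagcaTGTAAATAtaaagaga
*MGE1* (chrXV:775343-775366, plus strand): cgtttactTGTATATAtttgtaaa
The 10 genes without a match were *SAM35*, *SAM37*, *SAM50*, *TIM21*, *TIM50*, *PAM16*, *SSC1*, *MAS1*, *OCT1* and *TOM71*. All 3 genes of the SAM complex are among them.

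A second sequence set part of the matrix chaperone genes apart. The heat shock element, at which the factor Hsf1 binds, was searched as TTCNNGAANNTTC on both strands in the 300 bases from 250 before to 50 after the first base of the start codon, where matches may overlap. It was found in 3 of the 40 windows (7.50%), those of *HSP78*, *HSP60* and *HSP10*, and in 46 of 5976 windows of all protein-coding genes (0.770%). The *HSP78* window (chrIV:974194-974493, minus strand, R64) is shown whole because its gene had the largest change. Capitals mark 2 overlapping heat shock elements at its 5′ end and 3 stress response elements (AGGGG on either strand), to which the factors Msn2 and Msn4 bind.
*HSP78*: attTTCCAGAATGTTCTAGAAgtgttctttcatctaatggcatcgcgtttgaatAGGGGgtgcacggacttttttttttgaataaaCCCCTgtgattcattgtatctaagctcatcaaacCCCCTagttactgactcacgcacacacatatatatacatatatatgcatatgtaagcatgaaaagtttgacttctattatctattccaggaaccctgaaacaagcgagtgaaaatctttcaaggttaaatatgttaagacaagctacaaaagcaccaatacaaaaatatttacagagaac
*HSP60* (chrXII:665192-665220, minus strand): acctcgtgGAATTTTCCAGAAaaccaaat
*HSP10* (chrXV:370984-371012, minus strand): caatgataGAAATTTCTAGAAtcttgaag
Stress response elements were present in 5 of the 40 windows (12.5%), those of *HSP78*, *TIM10*, *TIM12*, *TIM13* and *SAM35*, against 21.6% of all windows. The CCAAT box, bound by the Hap complex of respiratory genes, was present in 18 windows (45.0%), against 43.3% of all. The element GGTGGCAAA of the proteasome regulator Rpn4 occurred once, in the window of *PIM1*, and in 1.19% of all windows. A match in such a window is a description of the letters only.

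*HSP78* and *MDJ1*, which encode chaperones of the matrix, rose by more than 2-fold in *tho2Δ*, and most of the other genes did not pass the test in either direction. By the quasi-likelihood test of edgeR, with p-values adjusted over 5890 genes after Benjamini and Hochberg, 2 of the 40 genes were higher in *tho2Δ* (*HSP78* and *MDJ1*), where 18.8% of all genes were higher. A further 4 were lower (*TIM9*, *TOM20*, *MGE1* and *MAS1*), where 19.1% of all genes were lower, and 34 did not pass at an adjusted p under 0.05. Both shares, 5% and 10%, lie below those of all genes. The median log2 fold change of the 40 genes was -0.01, beside 0.01 over all genes tested, and 20 values were positive and 20 negative. For 30 of the 34 genes that did not pass, the 95% interval of the fold change lay inside 2-fold in both directions, and for 13 of them inside 1.5-fold. In 12 genes both *tho2Δ* libraries were above both WT libraries (38.6% of all genes), in 13 both were below (36.3% of all genes), and in 15 the strains overlapped. The summed level of the 40 genes was 2933 and 3136 CPM in *tho2Δ* replicates 3 and 4, against 2833 and 2627 CPM in WT replicates 3 and 4. Without *HSP78* and *MDJ1* the sums were 2553 and 2746 CPM in *tho2Δ* and 2725 and 2497 CPM in WT, and overlapped. These 2 genes were left out because they rose, and the 4 lower genes were kept. The overlap is therefore a description and no test of the remaining genes.

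**Figure D1:**
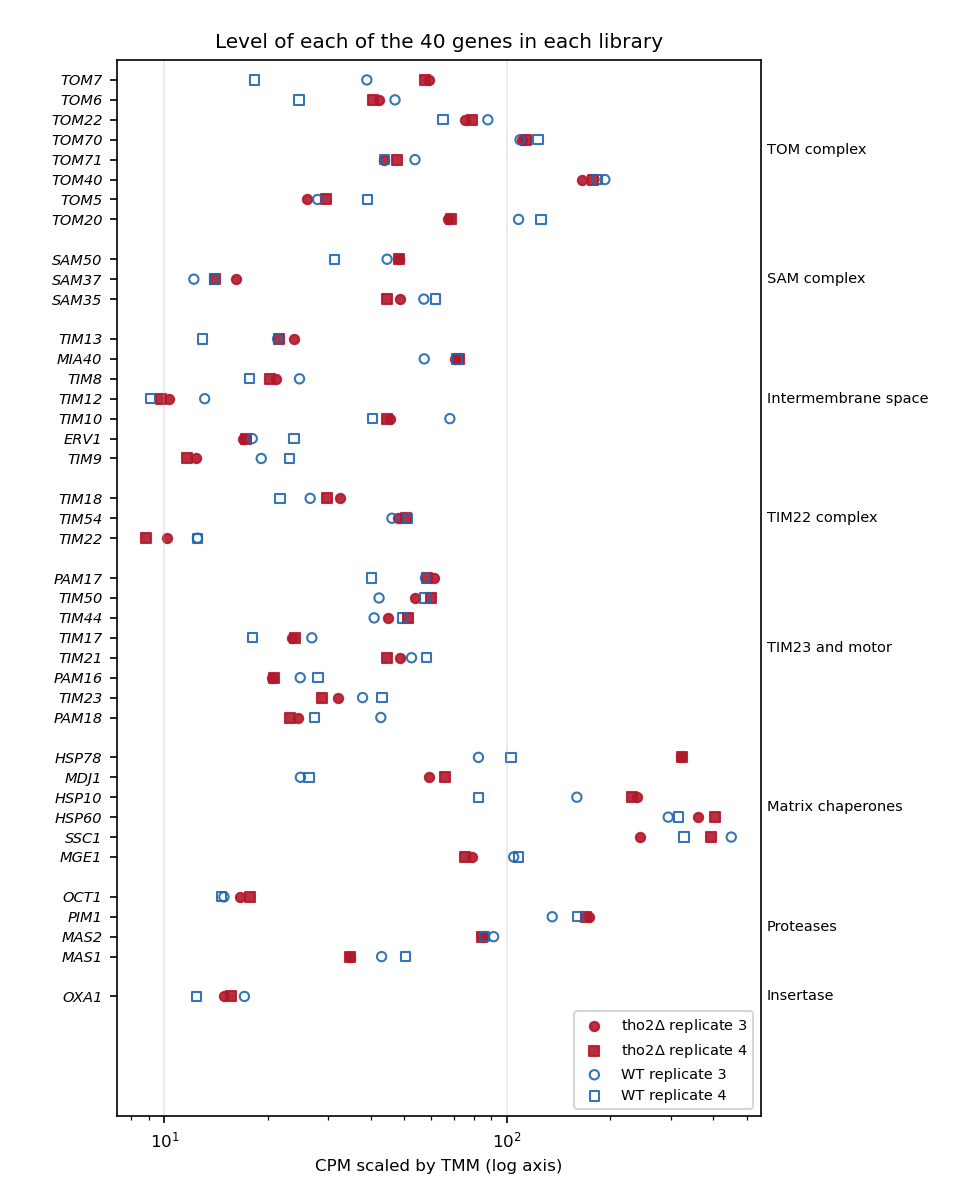
CPM scaled by TMM (log axis) of the 40 genes in each library, grouped by complex. Filled red symbols are the *tho2Δ* libraries and open blue symbols the WT libraries. The *tho2Δ* points of *HSP78* (321 and 324 CPM) and *MDJ1* (59.0 and 65.9 CPM) stand clear to the right of WT, whereas most other genes have interleaved or neighboring points.

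The scale decides where the zero of these comparisons lies. The TMM factors were 1.176 and 1.173 in *tho2Δ* replicates 3 and 4, against 1.003 and 0.723 in WT replicates 3 and 4. WT replicate 4 was thus rescaled the most against its total. With library totals in place of TMM, the median log2 fold change of all genes moved to 0.45 and that of the 40 genes to 0.41, and 5 of the 40 were then higher and 0 lower. At an unadjusted p under 0.05 in edgeR with TMM, 4 of the 40 were higher and 8 lower, and DESeq2 called 4 higher and 3 lower. Single libraries also moved these counts. Without *tho2Δ* replicate 3, and likewise without *tho2Δ* replicate 4, 2 of the 40 were higher and 0 lower, while 10 were higher and 10 lower without WT replicate 3, and 8 higher and 9 lower without WT replicate 4. All log2 fold changes below are relative to the TMM scale unless another setting is named. TPM values are not scaled by TMM, so TPM levels of the strains also differ by this choice of scale.

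The largest rise was in *HSP78*, the matrix disaggregase gene of the Hsp100 family (chromosome IV, 971808 to 974243, minus strand, R64). It had 321 and 324 CPM in *tho2Δ* replicates 3 and 4, against 82.5 and 103 CPM in WT replicates 3 and 4. The *tho2Δ* libraries were nearly equal and both lay far above the higher WT library. The log2 fold change was 1.80 ± 0.14 (SE; edgeR adjusted p = 0.00185), or 3.49-fold with a 95% interval from 2.71 to 4.48. It passed the test in all 13 other settings, with log2 fold changes between 1.63 and 2.27. Per coding length, its mean level of 131 ± 2.2 TPM (SD, n = 2; a level corrected for gene length and library size) in *tho2Δ*, against 28.3 ± 1.34 TPM in WT, placed it 10th of the 40 genes in *tho2Δ* and 27th in WT.

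*MDJ1* encodes the J protein that stimulates the matrix Hsp70 in folding (chromosome VI, 104701 to 106236, minus strand). Its level was 59.0 and 65.9 CPM in *tho2Δ* replicates 3 and 4, against 24.9 and 26.4 CPM in WT replicates 3 and 4. The strains did not overlap and the replicates lay close together. The log2 fold change was 1.28 ± 0.12 (SE; edgeR adjusted p = 0.00213), a 2.43-fold rise with a 95% interval from 1.97 to 3.01. The call held in all 13 other settings, between 1.2 and 1.73. No heat shock element or stress response element as spelled above lay in its window.

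Hsp60 and Hsp10 form the chaperonin of the matrix. *HSP10*, which encodes its lid (chromosome XV, 370524 to 370844, minus strand), had 239.8 and 231 CPM in *tho2Δ* replicates 3 and 4, against 159.8 and 82.6 CPM in WT replicates 3 and 4. Both *tho2Δ* values lay above WT, but the WT libraries stood far apart. The log2 fold change of 0.96 (SE 0.31) did not pass (edgeR adjusted p = 0.0573). Without WT replicate 4 it became 0.55 and without WT replicate 3 it became 1.49, with an adjusted p of 0.00124 and 9.68e-06 from edgeR in fits that take the spread from the *tho2Δ* libraries alone. The change was positive in all 13 other settings and passed in 6 of them, DESeq2 among these (adjusted p = 0.00548). *HSP60*, which encodes the chaperonin barrel (chromosome XII, 663284 to 665002, minus strand), had 361 and 405 CPM in *tho2Δ*, against 295 and 317 CPM in WT. Its groups also did not overlap, and its log2 fold change of 0.32 (SE 0.13; edgeR adjusted p = 0.101) did not pass. The 95% interval of its fold ran from 0.999 to 1.57. *HSP60* was called in 4 of the 13 other settings, with log2 fold changes of 0.78 on library totals (edgeR adjusted p = 0.0333), 0.72 in both limma fits on TPM (adjusted p = 0.0396 and 0.0432), and 0.37 without WT replicate 4 (edgeR adjusted p = 0.0182).

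The genes of the matrix Hsp70 itself and of its exchange factor did not share the rise of *MDJ1*. *SSC1*, the Hsp70 gene (chromosome X, 519638 to 521602, minus strand), had 245 and 392 CPM in *tho2Δ* replicates 3 and 4, against 451 and 329 CPM in WT replicates 3 and 4. These values overlap, and *SSC1* was the 1 gene of the 40 whose *tho2Δ* libraries differed by over 0.5 on the log2 scale. Its log2 fold change of -0.29 (95% interval from -0.98 to 0.40, edgeR adjusted p = 0.436) leaves a wide range. *MGE1*, which encodes the nucleotide exchange factor of Ssc1 (chromosome XV, 774573 to 775259, plus strand), had 79.1 and 75.4 CPM in *tho2Δ*, against 104.5 and 108 CPM in WT. The groups did not overlap, and *MGE1* was lower (log2 fold change -0.46, SE 0.10, edgeR adjusted p = 0.0173). That change rests on the scale, since it was -0.01 with library totals and -0.06 with limma on either TPM scale, with no call in any of these. The call was also lost without *tho2Δ* replicate 3 or 4 (edgeR adjusted p = 0.185 and 0.211). Of the 6 matrix chaperone genes, 2 were thus higher, 1 lower and 3 did not pass, with a median log2 fold change of 0.64.

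**Figure D2:**
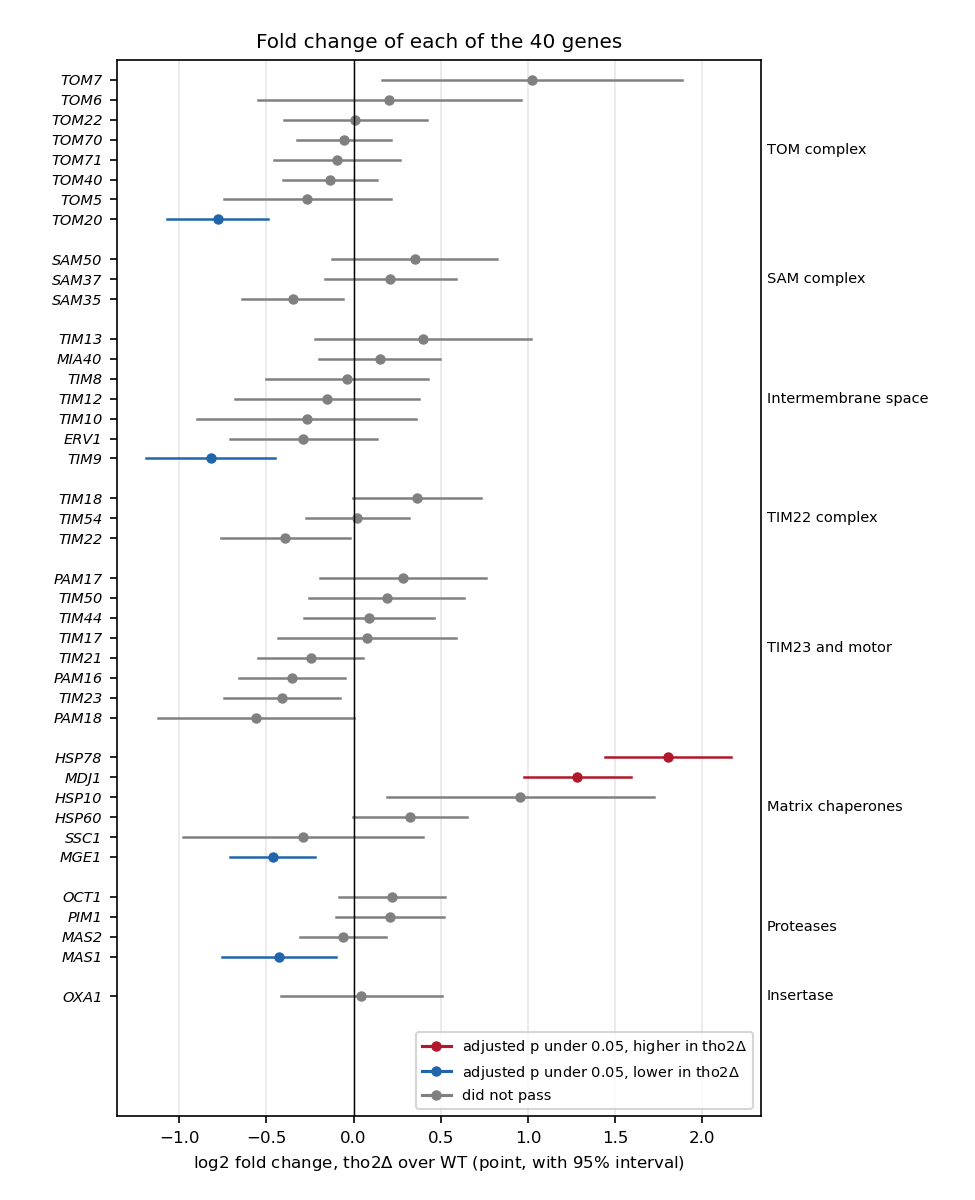
Log2 fold change, *tho2Δ* over WT, of the 40 genes by complex (points, with 95% intervals as lines; edgeR with TMM). Red marks the 2 genes that were higher, blue the 4 that were lower and gray the 34 that did not pass; the interval of *HSP78*, from 1.44 to 2.16, is the farthest from 0.

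The TOM complex is the common entry gate. Of its 8 genes, *TOM20* was lower, 0 were higher and 7 did not pass, with a median log2 fold change of -0.08. At an unadjusted p under 0.05, 1 gene was higher (*TOM7*), and DESeq2 also called 1 higher.
*TOM20*, a receptor that recognizes presequences (chromosome VII, 644044 to 644595, plus strand), had 67.4 and 68.7 CPM in *tho2Δ* replicates 3 and 4, against 108 and 126 CPM in WT replicates 3 and 4. Both *tho2Δ* libraries lay well under both WT libraries. The log2 fold change was -0.78 ± 0.12 (SE; edgeR adjusted p = 0.00616), so that WT was 1.71-fold higher. It was negative in all 13 other settings, between -0.91 and -0.32, and passed in 8 of them. The call was lost on library totals (edgeR adjusted p = 0.312), in limma on TPM (0.147 and 0.150), and when *tho2Δ* replicate 3 or 4 was left out (edgeR adjusted p = 0.0847 and 0.0724).
The other receptors were near their WT level. *TOM22*, the central receptor, had 75.2 and 79.0 CPM in *tho2Δ*, against 87.9 and 65.0 CPM in WT, and the strains overlapped (log2 fold change 0.01, 95% interval from -0.40 to 0.42). *TOM70*, the receptor of carrier precursors, had 110.2 and 113 CPM in *tho2Δ*, against 109 and 123 CPM in WT. Its paralog *TOM71* had 43.9 and 47.7 CPM in *tho2Δ*, against 53.9 and 43.9 CPM in WT. Both overlapped between strains, with log2 fold changes of -0.06 and -0.10. *TOM40*, the channel gene, had 165 and 178 CPM in *tho2Δ*, against 193 and 184 CPM in WT. Both *tho2Δ* libraries were below WT, but its log2 fold change of -0.14 (95% interval from -0.40 to 0.13) did not pass.
The small subunits that assemble around the channel had the widest gaps between the WT libraries in this complex. *TOM7*, which regulates the stability of the complex (chromosome XIV, 493366 to 493548, plus strand), had 59.2 and 57.5 CPM in *tho2Δ* replicates 3 and 4, against 39.0 and 18.3 CPM in WT replicates 3 and 4. Both *tho2Δ* values were above WT, but again with a wide gap between the WT libraries. Its log2 fold change of 1.02 (SE 0.34) did not pass (edgeR adjusted p = 0.0655). It became 0.57 without WT replicate 4 and 1.65 without WT replicate 3. The change was positive in all 13 other settings and passed in 5 of them. *TOM6* and *TOM5* had log2 fold changes of 0.21 (95% interval from -0.54 to 0.96) and -0.27 (from -0.74 to 0.21), with overlapping strains.

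In the SAM complex of the outer membrane, 0 of 3 genes were higher and 0 lower in edgeR, and DESeq2 called 0 as well. At an unadjusted p under 0.05 edgeR gave 0 higher and 1 lower, *SAM35*. *SAM50*, the β-barrel core, had 48.4 and 48.5 CPM in *tho2Δ*, against 44.6 and 31.3 CPM in WT (log2 fold change 0.35, edgeR adjusted p = 0.194). *SAM37* had 16.2 and 14.1 CPM in *tho2Δ*, against 12.2 and 14.01 CPM in WT (log2 fold change 0.21). *SAM35*, the receptor subunit for β-barrel signals, had 48.7 and 44.7 CPM in *tho2Δ*, against 57.2 and 61.7 CPM in WT (log2 fold change -0.35, edgeR adjusted p = 0.0640). The 3 subunits therefore had fold changes of both signs, and the intervals of all 3 lay inside 2-fold.

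Of the 7 genes of the intermembrane space, *TIM9* was lower, 0 were higher and 6 did not pass. At an unadjusted p under 0.05, 0 were higher and 1 lower, and DESeq2 also called 0 higher and 1 lower. *TIM9* encodes a small TIM chaperone that forms a hexamer with Tim10 (chromosome V, 117211 to 117474, plus strand). It had 12.3 and 11.7 CPM in *tho2Δ* replicates 3 and 4, against 19.2 and 23.2 CPM in WT replicates 3 and 4, with no overlap. The log2 fold change was -0.82 ± 0.15 (SE; edgeR adjusted p = 0.0107), the lowest of the 40 genes, so that WT was 1.76-fold higher. It was negative in all 13 other settings, between -0.98 and -0.35, and passed in 8. It did not pass on library totals (edgeR adjusted p = 0.339), in limma on TPM (0.128 and 0.131), or when *tho2Δ* replicate 3 or 4 was left out (edgeR adjusted p = 0.0820 and 0.103).
Its partner *TIM10* had 45.5 and 44.8 CPM in *tho2Δ*, against 68.1 and 40.5 CPM in WT, and overlapped (log2 fold change -0.27, 95% interval from -0.90 to 0.36). *TIM8* and *TIM13*, which form the other hexamer, had 21.2 and 20.3 CPM and 23.9 and 21.6 CPM in *tho2Δ*, against 24.8 and 17.7 CPM and 21.4 and 12.9 CPM in WT. Their log2 fold changes were -0.04 and 0.40, and neither passed. *TIM12*, the small TIM protein bound to the TIM22 complex, had a log2 fold change of -0.15. The disulfide relay genes *MIA40* and *ERV1* had log2 fold changes of 0.15 and -0.29, and neither passed. *ERV1* was the 1 gene of the 40 with an intron in its coding region.

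The inner membrane translocases held 0 called genes. In the TIM22 complex, which inserts carriers, edgeR called 0 of 3 genes, 0 were higher and 1 lower at an unadjusted p under 0.05, and DESeq2 called 0. *TIM22*, the channel gene, had 10.2 and 8.85 CPM in *tho2Δ*, against 12.5 and 12.5 CPM in WT (log2 fold change -0.39, edgeR adjusted p = 0.0892). *TIM54* and *TIM18* had log2 fold changes of 0.02 and 0.36. In the TIM23 complex with its motor, edgeR called 0 of 8 genes, 0 were higher and 2 lower at an unadjusted p under 0.05, and DESeq2 called 0. *TIM23*, which forms the presequence translocase with Tim17, had 32.1 and 28.8 CPM in *tho2Δ*, against 37.9 and 43.2 CPM in WT (log2 fold change -0.41, edgeR adjusted p = 0.0585). The strains did not overlap for *TIM23*, but did for *TIM17*, with 23.5 and 24.1 CPM in *tho2Δ*, against 26.9 and 18.1 CPM in WT. *PAM18*, the J protein of the motor, had 24.5 and 23.3 CPM in *tho2Δ*, against 42.8 and 27.5 CPM in WT (log2 fold change -0.56, edgeR adjusted p = 0.102). *PAM16*, its J-like partner, had 20.6 and 20.9 CPM in *tho2Δ*, against 24.9 and 28.1 CPM in WT (log2 fold change -0.35, edgeR adjusted p = 0.0698). *TIM44*, *TIM50*, *TIM21* and *PAM17* had log2 fold changes of 0.09, 0.19, -0.25 and 0.28, and none of these 4 passed.

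The matrix processing peptidase removes presequences. *MAS1*, which encodes its catalytic β subunit (chromosome XII, 491866 to 493254, minus strand), had 34.8 CPM in both *tho2Δ* libraries, against 43.0 and 50.6 CPM in WT replicates 3 and 4. The groups did not overlap, and the log2 fold change was -0.43 (SE 0.13) at an edgeR adjusted p of 0.0497, just under the threshold. It passed in 3 of the 13 other settings and became 0.04 with library totals, so neither its call nor its sign held across scales. *MAS2*, the gene of the α subunit, had 85.3 and 84.6 CPM in *tho2Δ*, against 91.4 and 85.9 CPM in WT (log2 fold change -0.06, 95% interval from -0.31 to 0.18). *PIM1*, the Lon protease gene, had 173 and 170 CPM in *tho2Δ*, against 135 and 161 CPM in WT, and *OCT1*, the octapeptidyl peptidase gene, had 16.6 and 17.8 CPM in *tho2Δ*, against 14.9 and 14.7 CPM in WT. Both were higher in each *tho2Δ* library than in each WT library, but their log2 fold changes of 0.21 and 0.22 did not pass (edgeR adjusted p = 0.228 and 0.204). *OXA1*, the insertase for inner membrane proteins made in the matrix, had a log2 fold change of 0.05 with overlapping strains.

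**Figure D3:**
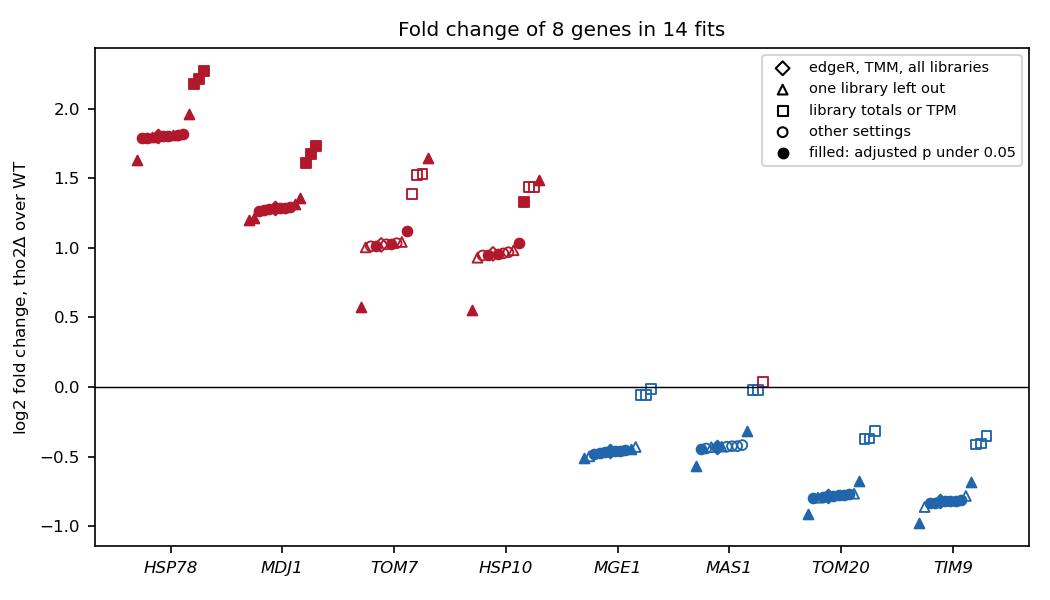
Log2 fold change, *tho2Δ* over WT, of 8 of the 40 genes in 14 fits: edgeR with TMM and all libraries (diamonds), fits that leave out 1 library (triangles), fits on library totals or TPM (squares) and other settings (circles), filled where the adjusted p was under 0.05. *HSP78* and *MDJ1* are filled throughout, while *MGE1* and *MAS1* reach -0.01 and 0.04 with library totals.

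Ratios between partner genes within a library do not depend on how libraries are scaled. They were taken from TPM, which corrects for gene length, for 9 pairs. With 2 libraries per strain an exact permutation test cannot go below p = 0.33, so none was run. *TOM20* had 0.746 and 0.724 times the TPM of *TOM22* in *tho2Δ* replicates 3 and 4, against 1.02 and 1.61 times in WT replicates 3 and 4. *TOM20* was thus the less abundant of this pair in both *tho2Δ* libraries. In WT it was about equal to *TOM22* in replicate 3 and clearly above it in replicate 4 alone. *MAS1* had 0.425 and 0.430 times the TPM of *MAS2* in *tho2Δ*, against 0.491 and 0.614 times in WT, and *TIM8* had 1.07 and 1.13 times that of *TIM13* in *tho2Δ*, against 1.40 and 1.65 times in WT. In the pairs *TIM9* and *TIM10*, *HSP60* and *HSP10*, and *TIM23* and *TIM17*, the *tho2Δ* ratios also lay below both WT ratios. The WT libraries of these pairs differed by 1.03, 1.05 and 0.76 on the log2 scale, more than the difference between the strain means (-0.60, -0.71 and -0.52). For *SSC1* and *MGE1*, *TOM70* and *TOM71*, and *PAM18* and *PAM16*, the strains overlapped.

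**Figure D4:**
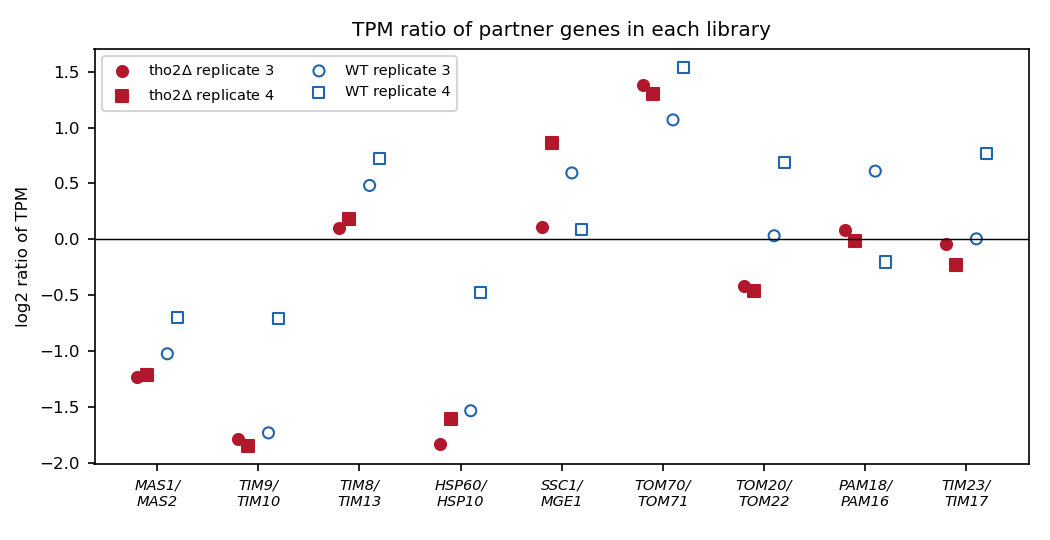
Log2 ratio of the TPM of 2 partner genes in each library, with *tho2Δ* libraries (filled red) left of WT libraries (open blue). *TOM20* over *TOM22* lies below 0 in both *tho2Δ* libraries (-0.42 and -0.47) and above 0 in both WT libraries (0.03 and 0.68).

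Per length, *HSP10* was the most abundant of the 40 transcripts in both strains, with 725 ± 12 TPM in *tho2Δ* and 298 ± 186 TPM in WT (SD, n = 2 each), and *OCT1* the least, with 7.34 ± 0.42 and 4.82 ± 1.04 TPM. *TOM7* came second in *tho2Δ* and 9th in WT, and *TOM20* 11th in *tho2Δ* and 3rd in WT. Because the WT values of *HSP10* and *TOM7* (124 ± 84.1 TPM) spread widely, their neighbors in the WT order do not differ from them beyond that spread.

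The WT libraries differed from each other more than the *tho2Δ* libraries did, in these genes and over the whole table. The median absolute log2 difference was 0.29 in WT and 0.07 in *tho2Δ* over the 40 genes. Over all genes tested it was 0.25 in WT and 0.09 in *tho2Δ*. In 10 of the 40 genes, WT replicate 4 was lower than WT replicate 3 by over 0.5 on the log2 scale. In 0 of the 40 was it higher by that much. Of the 5890 genes tested, 1308 differed by over 0.5 in either direction, 737 of them lower in WT replicate 4. The 10 among the 40 were *TOM7*, *TOM6*, *HSP10*, *TIM10*, *TIM13*, *PAM18*, *TIM17*, *TIM12*, *PAM17* and *SAM50*. Over the 12 genes with a coding length of up to 500 bases, the median difference was -0.55, against 0.11 in the 28 longer ones. Over all coding genes the medians of these length classes were -0.13 and 0.00. Across genes, the difference between the WT libraries had a Spearman's rho with coding length of 0.35 in the 40 genes and 0.0036 in 5725 coding genes, and with GC content of 0.0083 in the 40 genes and 0.215 in the coding genes. The differences between the *tho2Δ* libraries had medians of -0.05 and 0.02 for the short and the long genes of the 40. The fold change itself varied little with length (Spearman's rho 0.21 across the 40 genes, 0.02 across 5744 coding genes) or with GC content of the coding region (rho -0.13 and -0.09), where the genes share the same 4 libraries. Whether length had a part in the values of *TOM7* and *HSP10* was not tested.

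The median log2 fold change was 0.02 in the 30 genes with the Puf3 element and -0.17 in the 10 without. Across all protein-coding genes the medians were 0.08 with and -0.01 without the element, and the difference was not tested. The 3 genes with a heat shock element had log2 fold changes of 1.80 (*HSP78*), 0.96 (*HSP10*) and 0.32 (*HSP60*), of which *HSP78* alone passed, and over all carriers of this element the median was 0.06. For the stress response element, the medians in the 40 genes were -0.15 with and 0.01 without it. Across all protein-coding genes they were 0.27 with and -0.06 without it, and these differences were not tested.

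Other genes of import and of mitochondrial protein quality control were taken as a list of 51. Of these, 13 were higher (25.5%, against 18.8% of all genes), 5 lower (9.80%, against 19.1% of all genes) and 33 did not pass, with a median log2 fold change of 0.26. The highest of the called genes were *OM45* and *OM14*, abundant proteins of the outer membrane, with log2 fold changes of 1.58 and 1.46, which passed in all 13 other settings. *OM45* had 26.2 and 27.8 CPM in *tho2Δ* replicates 3 and 4, against 8.56 and 9.52 CPM in WT replicates 3 and 4, and *OM14* had 46.4 and 47.6 CPM in *tho2Δ*, against 20.2 and 13.7 CPM in WT. *PHB2*, a prohibitin, *YTA12*, a subunit of the m-AAA protease of the inner membrane, and *SSQ1*, the Hsp70 of iron-sulfur protein assembly, followed among the called genes with 0.67, 0.66 and 0.56 (edgeR adjusted p = 0.0123, 0.0116 and 0.0354). The lowest called gene was *DJP1*, a cytosolic J protein that helps deliver precursors, with 15.8 and 17.0 CPM in *tho2Δ*, against 26.5 and 28.3 CPM in WT (log2 fold change -0.74, edgeR adjusted p = 0.00764). *MRX15* and *COX18*, both of inner membrane insertion, *MIM2*, of outer membrane insertion, and *XDJ1*, a J protein at the TOM complex, had log2 fold changes of -0.64, -0.62, -0.61 and -0.40 and were lower as well, although *XDJ1* became 0.04 with library totals. Without *tho2Δ* replicate 3 or 4, 2 genes of this list were higher and 0 lower. With library totals and with limma on both TPM scales, 0 genes of this list were lower.

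Counts in lists of other genes are read against the 18.8% of all genes that were higher and the 19.1% that were lower. Of 41 genes of the respiratory chain and ATP synthase, 33 were higher (80.5%) and 0 lower (median log2 fold change 0.996), with 36 higher and 0 lower at an unadjusted p under 0.05 and 35 higher and 0 lower in DESeq2. Of 72 genes of mitochondrial ribosomal proteins, 4 were higher (5.56%) and 0 lower (median 0.12), with 12 higher and 1 lower at an unadjusted p under 0.05 and 5 higher and 1 lower in DESeq2. The Puf3 element was present in 70 of these 72 genes (97.2%) and in 10 of the 41 respiratory genes (24.4%). Of 18 cytosolic chaperone genes, many of them Hsf1 targets, 11 were higher (61.1%) and 0 lower (median 1.13), with the same counts at an unadjusted p under 0.05 and in DESeq2. The difference between these lists and the 40 genes was not tested.

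**Figure D5:**
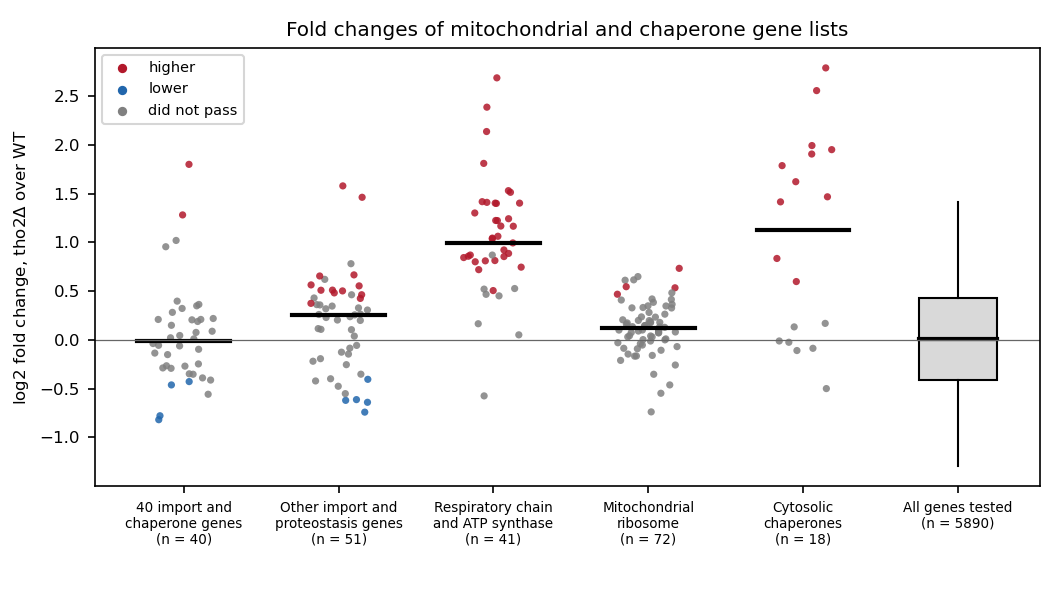
Log2 fold change, *tho2Δ* over WT, of each gene in 5 lists (points; black bars are list medians) beside all 5890 genes tested (box from the 25th to the 75th percentile, whiskers from the 5th to the 95th). The bar of the 40 genes lies at -0.01 and that of the respiratory list at 0.996.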

How the data were processed

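The deposited table gives raw counts, FPKM and TPM for each gene and library. The counts are the authors' whole numbers without normalization, and their TPM values account for gene length. The 4 FPKM columns were not used. Tools named in the submitters' processing notes, with no role, are bcl2fastq 2.20.0 and Trimmomatic, besides StringTie 1.3.4d and HISAT2 2.1.0, with build R64. Whether counting used strand is not stated. By locus tag, 5995 of 6396 genes were found in RefSeq R64. All 234 list entries were matched, 3 under another spelling. None of the 40 genes overlapped an annotated gene or had a copy in BLAST 2.17.0 (95% identity or more, covering 50% or more).

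Strains were compared in edgeR 4.0.16 under R 4.3.3, on counts scaled by TMM after its expression filter, with genotype as the one factor. P-values came from the quasi-likelihood test, were adjusted over all genes and were called under 0.05. SE was derived from the F value, and 95% intervals from SE. Other settings were median-of-ratios factors, library totals, the exact test, DESeq2 1.42.0, limma 3.58.1 on log2 TPM with 1 or 0.1 added (mean TPM 1 or more), no filter, mean counts of 50 or more, replicate number as block, and leaving out each library, in which case the lone library is taken to vary like the other strain. Scripts were tested on simulated data. The 40 genes, the lists and the pairs were chosen with earlier results of these data known. Values per library are given for called genes, partner pairs and genes with a sequence feature, and 5 genes in each direction of the other import list are named. The limit for 0 counts (3 counts) covers counting error only. Figures used Python 3.11.15 and matplotlib 3.10.9.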

Additional observations from a re-analysis of the deposited data

How the results depend on the processing

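Of the 6 calls, those of *HSP78* and *MDJ1* held in all 13 other settings, and those of *TIM9*, *TOM20*, *MGE1* and *MAS1* did not. With library totals, 1207 genes were higher and 303 lower, against 1110 and 1127 with TMM, the median of the 40 genes was 0.41 (that of all genes 0.45), and 5 of the 40 were higher and 0 lower. *MAS1* and *XDJ1* then changed sign, to 0.0354 and 0.0420. With limma on log2(TPM + 1) and log2(TPM + 0.1), 348 and 335 genes were lower, 0 of the 40 were lower, and their medians were 0.40 and 0.41. DESeq2 and the exact test each gave 4 higher genes among the 40. Leaving out 1 library at a time gave 307 to 1790 higher and 200 to 1847 lower genes over the whole table, 2 to 10 higher and 0 to 10 lower among the 40, and medians from -0.14 to 0.0276. Without *tho2Δ* replicate 3 or 4, 2 of the 40 were higher and 0 lower; without WT replicate 3, 10 were higher and 10 lower, and without WT replicate 4, 8 and 9. Each of these fits has fewer samples and takes its spread from the strain that keeps 2 libraries. The median absolute log2 difference between libraries of a strain was 0.29 in WT and 0.07 in *tho2Δ* over the 40 genes. Over all genes tested it was 0.25 and 0.09. The cause of the differing counts was not tested.

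Across the genes tested, the deviations of same-numbered libraries from their strain means correlated at 0.01. This value describes the genes as a whole and does not settle whether single genes follow the replicate number. *LEU2* was higher in replicate 4 than in replicate 3 in both strains. With the replicate number as a block, 4 of the 40 genes were higher (*HSP10* and *TOM7* besides *HSP78* and *MDJ1*) and 3 lower, and 1089 and 1040 over all genes. The lowest count of the 40 genes in any library was 213, and the tests rest on 2 libraries per strain. Whether depth or the number of libraries limited the calls was not tested.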
